A study of Saccharomyces cerevisiae with 8 samples.

Results

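*HO* and 5 transcription regulator genes listed with it, *SWI4*, *SWI6*, *MBP1*, *SWI5* and *ASH1*, were followed among 5449 named genes of budding yeast, *Saccharomyces cerevisiae*. Each of the 6 was measured by 1 probe set (1778270_at, 1770133_at, 1776552_at, 1775858_at, 1770349_at and 1772030_at, in that order). *HO* was chosen by its measured level on these same arrays, which stood far from the others in one group, so its values are given as a description without a test. The 5 regulators were chosen by their roles at the *HO* promoter or, for *MBP1*, in a related complex that shares Swi6. The 8 Affymetrix arrays fell into 4 groups of 2, made up of 2 strains at 2 temperatures. The strains were PY1 and met30-6 (py283), which carries a temperature-sensitive allele of *MET30*, and each was sampled at 25 °C and after a shift to 35 °C for 1 h. All cultures grew to mid-log phase in YPDA at 25 °C, which the sample names call room temperature. No source used here gives the genotype of PY1, and met30-6 is a single strain. The comparison of temperatures in met30-6 was made to find transcripts that mark a loss of Met30 function.

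*HO* encodes the endonuclease that cuts the mating-type locus and so starts mating-type switching in haploid cells. Its transcription is a textbook case of ordered activation. At the end of mitosis the zinc-finger factor Swi5 enters the nucleus, binds far upstream of the gene and brings in the SWI/SNF remodeller and the SAGA acetyltransferase, after which SBF, a complex of Swi4 and Swi6, activates the promoter in late G1. Ash1, made from an mRNA carried into the bud, represses *HO* in daughter cells. MBF, a complex of Mbp1 and Swi6, drives a related set of late G1 genes. Met30 is the F-box subunit of an SCF ubiquitin ligase.

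Values are log2 expression values as the authors deposited them, with the base inferred from their range, and errors are the SD of 2 arrays or the SE of a difference. The medians of the 8 arrays spanned 10.97 to 11.09, and Pearson's r between the replicates of a group was 0.9927 to 0.9951 over all probe sets. The median SD within groups was 0.065 for the 2866 genes with a mean from 10 to 12 and 0.429 for the 231 genes with a mean under 6. Separate cultures are not stated for the 2 arrays of a group, so a p-value here reflects the spread between samples that may be technical replicates. Tests are two-sided limma contrasts on all 8 arrays with p-values adjusted over the 5449 genes by Benjamini and Hochberg's method, and the word called marks a gene with an adjusted p under 0.05. The transcripts of 5 MATa genes (*MFA1*, *MFA2*, *STE2*, *STE6* and *AGA2*) read at least 10.90 on each array and *ASG7* at least 8.60, whereas the MATa protease gene *BAR1* read between 3.39 and 7.03. Of the MATalpha markers, *MF(ALPHA)1* read at most 4.38, *MF(ALPHA)2* at most 6.51 and *STE3* at most 6.55, whereas *SAG1* read between 9.72 and 10.18. The 9 haploid-specific genes listed, which like *HO* are shut off in diploid cells, read at least 8.21 on each array.

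The *HO* transcript was near 11.5 on 6 arrays and near 5.8 on the other 2. In PY1 it read 11.67 and 11.64 at 25 °C and 11.41 and 11.58 at 35 °C. In met30-6 it read 11.50 and 11.56 at 25 °C, and 5.89 and 5.68 at 35 °C. The 2 low arrays were both of met30-6 at 35 °C and lay far below the other 6, which ran from 11.41 to 11.67.

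**Figure D1:**
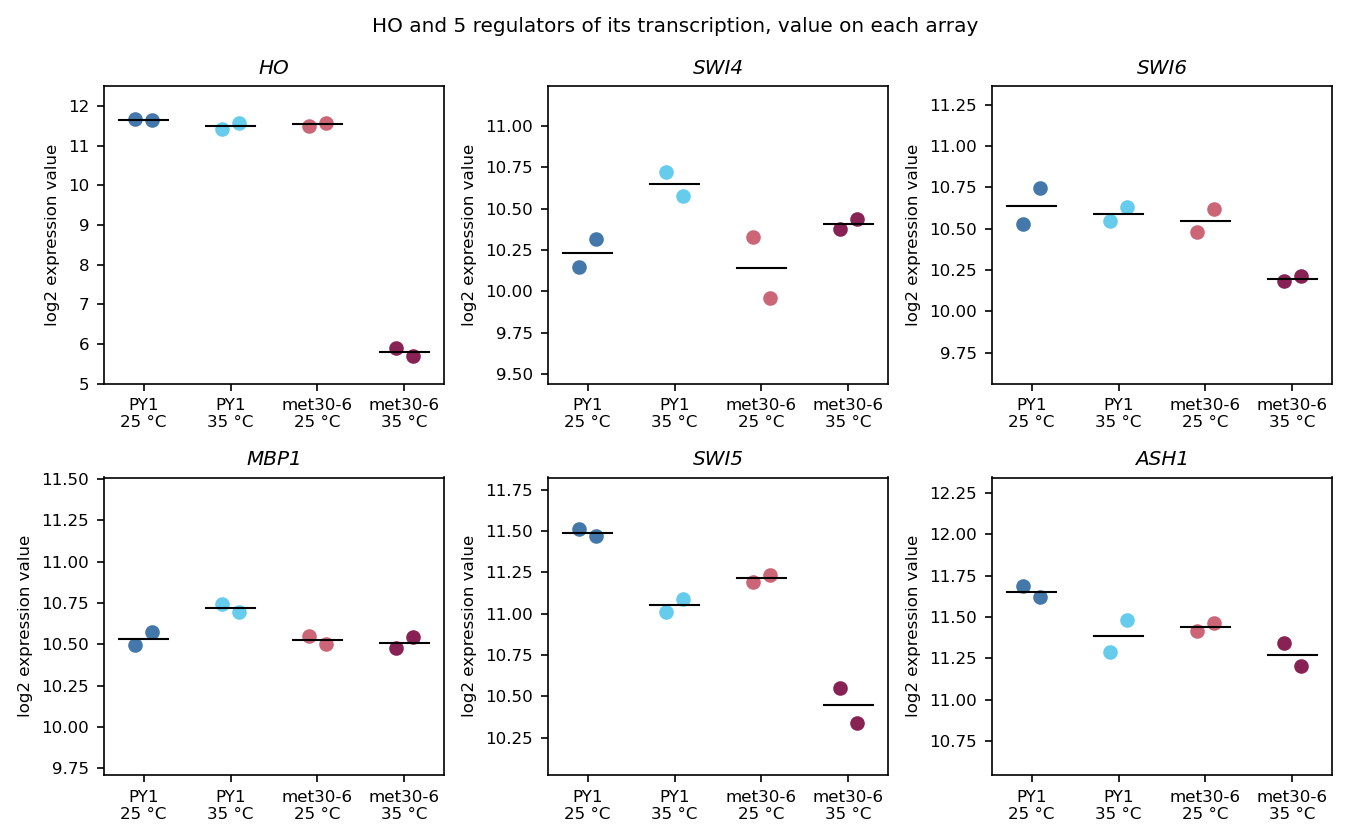
Log2 expression value of each of the 6 genes on each array (points, 2 for each group) with the group mean (bar), for PY1 and met30-6 at 25 and 35 °C. The axis of *HO* is wider than the axes of the others, which span the same range. *HO* stands at 5.78 in met30-6 at 35 °C and between 11.49 and 11.65 in the other groups, whereas the group means of the 5 regulators lie between 10.14 and 11.65.

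The group means of *HO* were 11.65 ± 0.02 in PY1 at 25 °C, 11.53 ± 0.04 in met30-6 at 25 °C, 11.49 ± 0.12 in PY1 at 35 °C and 5.78 ± 0.14 in met30-6 at 35 °C (SD, n = 2). The first group stood 0.12 above the second on the log2 scale, without overlap of their arrays, and the arrays of met30-6 at 25 °C and PY1 at 35 °C overlapped. The difference between temperatures was −5.75 in met30-6, a 53.8-fold lower level, and −0.16 in PY1. Between the strains it was −0.12 at 25 °C and −5.71 at 35 °C, a 52.2-fold lower level in met30-6. The interaction, which is the temperature difference in met30-6 minus that in PY1, was −5.59. Of all 5449 genes *HO* had the lowest temperature difference in met30-6 and the lowest interaction, followed in both by *SCS3* (−4.00 and −4.48). Between the strains at 35 °C *HO* was the second lowest, after *YCL021W-A* (−8.01), which was already at 3.31 in met30-6 at 25 °C. *SCS3* and *YCL021W-A* are outside the rule for named genes and were picked after their values were seen. Only 3.43% and 3.34% of the probe sets on the 2 low arrays read under *HO*, and no detection call was analysed here, so a value near 5.8 may lie at the level of background and the fold is uncertain. With values under 6 set to 6 the met30-6 temperature difference was −5.53, and with quantile normalisation it was −6.27.

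The 6 genes beside *HO* on its chromosome had temperature differences in met30-6 between −0.45 and 0.33. *SSB1*, which encodes a ribosome-associated chaperone, lies next to it on one side. It went from 14.23 to 13.93 in met30-6, a fall of 0.30 ± 0.05 (limma, adjusted p = 0.00165), but a near-identical paralog may share its probes. *GCS1*, which encodes a GTPase-activating protein of vesicle transport, lies next to *HO* on the other side, across the long upstream region of *HO*. It fell by 0.27 ± 0.05 (limma, adjusted p = 0.00421). Of the other neighbours, the tyrosine phosphatase gene *PTP1* rose by 0.25, the septin gene *SHS1* rose by 0.33, *BRE4* fell by 0.45, and *WHI4*, of an RNA-binding protein, had a difference of 0.07 that was not called. In PY1 the 6 neighbours had temperature differences from −0.32 (*BRE4*, called) to 0.05 (*SHS1*, not called).

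**Figure D2:**
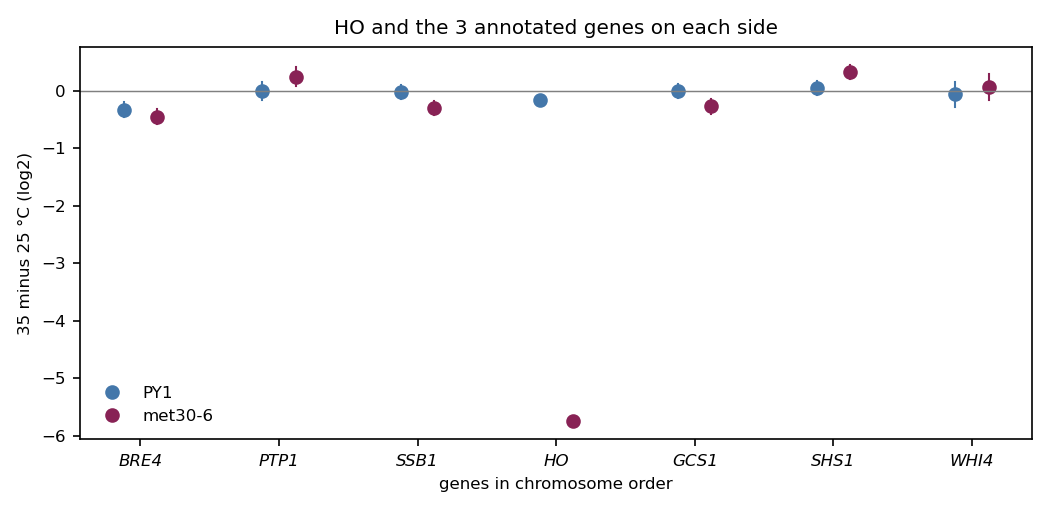
Difference between 35 and 25 °C (log2) in PY1 and in met30-6 for *HO* and the 3 annotated genes on each side in chromosome order, not spaced to scale, with 95% intervals for the neighbours. *HO* in met30-6 is at −5.75, and the 6 neighbours lie between −0.45 and 0.33 in that strain.

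*SWI5*, the activator that acts first at *HO*, was lower at 35 °C than at 25 °C in both strains. It read 11.51 and 11.47 in PY1 at 25 °C, 11.01 and 11.09 in PY1 at 35 °C, 11.19 and 11.23 in met30-6 at 25 °C, and 10.55 and 10.34 in met30-6 at 35 °C. No 2 groups overlapped, and the order of the means ran from PY1 at 25 °C through met30-6 at 25 °C and PY1 at 35 °C to met30-6 at 35 °C. *SWI5* fell by 0.44 ± 0.08 in PY1 (limma, adjusted p = 0.00635) and by 0.77 ± 0.08 in met30-6 (limma, adjusted p = 0.00016). In met30-6 this left 58.7% of the 25 °C level, where *HO* read 1.86% of its own, which is an upper limit if its low value lies at background. Between the strains at 35 °C *SWI5* was 1.52-fold lower in met30-6 (limma, adjusted p = 0.000516). These 3 calls held under each of the 17 alternatives run, with differences of −0.51 to −0.40, −0.88 to −0.66 and −0.71 to −0.50. The interaction of −0.33 ± 0.11 passed the threshold narrowly (limma, adjusted p = 0.0467), and over its alternatives the adjusted p ranged from 0.0125 to 0.131. That call ended without any one array other than met30-6 35 °C replicate 1, with values of −0.37 to −0.22, and with quantile normalisation (−0.22, adjusted p = 0.0777). At 25 °C the strains differed by −0.28, which was not called (adjusted p = 0.0681), although their arrays did not overlap.

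The DNA-binding subunit of SBF, *SWI4*, was not called in met30-6 at 35 °C against either of its comparison groups. Its arrays read 10.15 and 10.32 in PY1 at 25 °C, 10.72 and 10.57 in PY1 at 35 °C, 10.33 and 9.96 in met30-6 at 25 °C, and 10.38 and 10.44 in met30-6 at 35 °C. Both 35 °C groups lay above all 25 °C arrays, and the 2 groups at 25 °C overlapped. The temperature difference in met30-6 was 0.26 ± 0.13, with a 95% interval, not corrected for multiple tests, from −0.04 to 0.57 (limma, adjusted p = 0.104). It was called without met30-6 25 °C replicate 1 (0.45, adjusted p = 0.0129), and the difference was 0.08 at the other end of the alternatives. Between the strains at 35 °C *SWI4* differed by −0.24, with an interval from −0.54 to 0.06 (adjusted p = 0.133). That difference was called with only the groups compared in the fit (−0.24, adjusted p = 0.0348) and without either met30-6 25 °C array (−0.24, adjusted p = 0.0493). In PY1 *SWI4* rose by 0.42 ± 0.13 (limma, adjusted p = 0.0414), a call that ended without either array of PY1 at 25 °C, of PY1 at 35 °C or of met30-6 at 35 °C, with values of 0.33 to 0.50 and adjusted p up to 0.177.

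*SWI6*, whose product is shared by SBF and MBF, was lower in met30-6 at 35 °C than on all other arrays. It read 10.53 and 10.74 in PY1 at 25 °C, 10.54 and 10.63 in PY1 at 35 °C, 10.48 and 10.62 in met30-6 at 25 °C, and 10.18 and 10.21 in met30-6 at 35 °C. The first 3 groups overlapped one another. *SWI6* fell by 0.35 ± 0.09 in met30-6 (limma, adjusted p = 0.00957), and at 35 °C it was 1.31-fold lower in met30-6 than in PY1 (limma, adjusted p = 0.0063). The second call held under all 17 alternatives, and the first ended without met30-6 25 °C replicate 2 (−0.28, adjusted p = 0.0602). The interaction of −0.30 ± 0.12 was not called (adjusted p = 0.0834), but it was without PY1 25 °C replicate 2 (−0.41, adjusted p = 0.0234) and with a trended robust variance (−0.30, adjusted p = 0.0352).

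*MBP1*, which encodes the DNA-binding subunit of MBF, was not called between temperatures in met30-6. Its arrays read 10.49 and 10.57 in PY1 at 25 °C, 10.74 and 10.70 in PY1 at 35 °C, 10.55 and 10.50 in met30-6 at 25 °C, and 10.48 and 10.54 in met30-6 at 35 °C. PY1 at 35 °C lay above all other arrays, and the other 3 groups overlapped. The temperature difference in met30-6 was −0.015, with an interval from −0.15 to 0.12 (adjusted p = 0.819). The rise of 0.19 in PY1 (limma, adjusted p = 0.0417) was lost without any one of the 8 arrays, with values of 0.15 to 0.22. The 1.16-fold lower level in met30-6 at 35 °C (limma, adjusted p = 0.0149) was lost without PY1 35 °C replicate 1 (−0.19, adjusted p = 0.0761), without met30-6 35 °C replicate 1 (−0.17, adjusted p = 0.0788), with array medians subtracted (−0.14) and with quantile normalisation (−0.10).

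*ASH1*, the repressor gene, was not called in met30-6. It read 11.69 and 11.62 in PY1 at 25 °C, 11.29 and 11.48 in PY1 at 35 °C, 11.41 and 11.46 in met30-6 at 25 °C, and 11.34 and 11.20 in met30-6 at 35 °C. PY1 at 25 °C was above the other 3 groups, and PY1 at 35 °C overlapped with each of the met30-6 groups. Its temperature difference in met30-6 was −0.17, with an interval from −0.37 to 0.03 (adjusted p = 0.115), and was called with quantile normalisation (−0.19, adjusted p = 0.0328). At 35 °C the strains differed by −0.11, with an interval from −0.31 to 0.08. In PY1 it fell by 0.27 ± 0.08 (limma, adjusted p = 0.044), and this call ended without any one array other than PY1 35 °C replicate 2, with values of −0.30 to −0.17 and adjusted p up to 0.2.

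**Figure D3:**
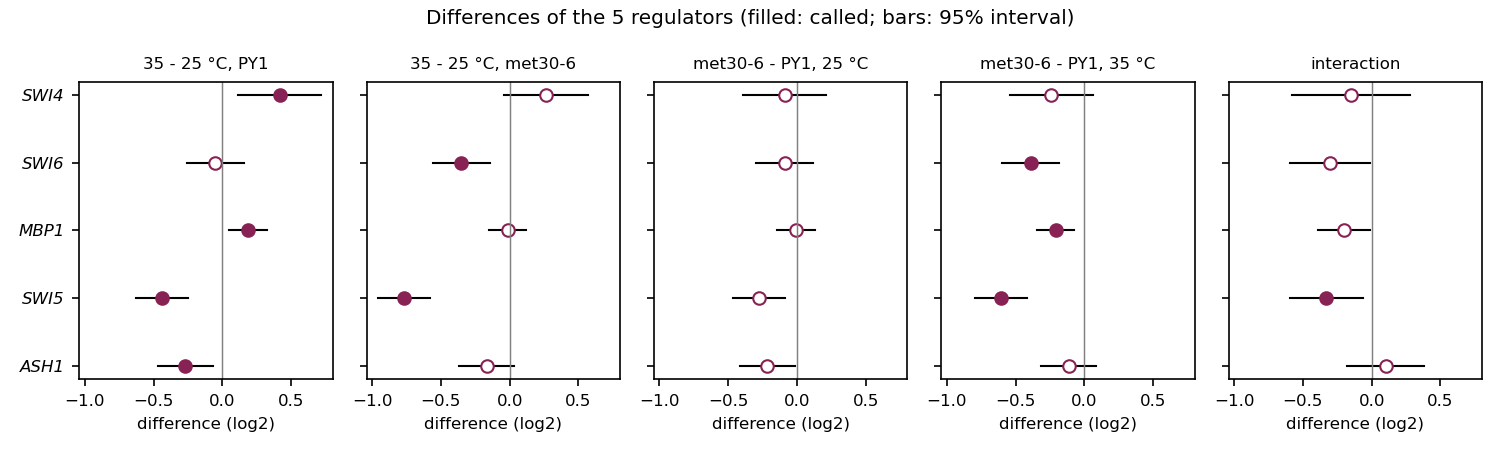
Differences of the 5 regulators (log2) in each of the 5 comparisons, with 95% intervals not corrected for multiple tests; filled points passed the adjusted threshold. The scale runs from about −1 to 0.8, and the lowest point is *SWI5* in the met30-6 temperature shift at −0.77.

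Counted together, 4 of the 5 regulators were called between temperatures in PY1, where 36.7% of all genes were, 2 of them higher (26.2% of all genes) and 2 lower (10.4%). In met30-6 2 of 5 were called, both lower, against 68.1% of all genes in either direction and 29.3% lower. Between the strains at 35 °C 3 of 5 were called, all lower, against 66.7% of all genes in either direction and 32.7% lower. In the interaction 1 of 5 was called, at a negative value, against 48.3% of all genes and 24.5% with a negative value. At 25 °C limma called 0 of 5 against 12.9% of all genes, and 2 of 5 had an unadjusted p under 0.05. The arrays of the groups did not overlap for 4 of 5 regulators in PY1 (67.8% of all genes), 4 in met30-6 (85.7%), 2 between strains at 25 °C (55.8%) and 4 at 35 °C (84.9%). The median difference of the 5 in met30-6 was −0.17 beside 0.07 over all genes, and at 35 °C between strains −0.24 beside 0.02. The count in PY1 was 1 or 2 without any one array, and 2 with array medians subtracted or with quantile normalisation.

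At 35 °C, most genes for proteins that hold SBF and MBF in check or help them start were lower in met30-6 than in PY1. The count was 9 of 11, against 32.7% of all genes, with a median of −0.69, whereas the cyclin gene *CLN3* was higher by 0.47. Of the 11 genes, 7 fell and 2 rose in met30-6 (29.3% of all genes fell and 38.8% rose), with a median of −0.57. *NRM1*, of a corepressor of MBF, had the largest fall, 1.47 ± 0.05 (limma, adjusted p = 2.45e-06). *WHI5*, the repressor of SBF that *CLN3* opposes, fell by 0.91, the SBF and MBF partner genes *STB1* and *MSA2* by 0.65 and 0.76, *YOX1*, of a repressor of early cell-cycle genes, by 0.72, *MSA1* by 0.57 and *SKN7* by 0.34. *CLN3*, the G1 cyclin that starts the programme, rose by 0.22 ± 0.06, and *BCK2*, which acts in parallel with it, by 0.23. The number that rose was 0 without met30-6 25 °C replicate 1 or met30-6 35 °C replicate 1, and 1 without met30-6 25 °C replicate 2. *YHP1* and the kinase gene *CDC28* had differences of −0.13 and 0.02, not called. In the interaction *CLN3* stood at 0.66, *NRM1* at −1.70 and *YOX1* at −1.40, each called by limma.

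Genes known to act on *SWI5* and *ASH1* were also lower in part. Of 9 measured of 10, 6 fell and 1 rose in met30-6 (29.3% and 38.8% of all genes), with a median of −0.40. The mitotic cyclin gene *CLB2*, a kinase partner that keeps Swi5 out of the nucleus, fell by 1.07 ± 0.10 in met30-6 and by 0.85 ± 0.10 in PY1 (limma, adjusted p = 9.38e-05 and 0.0011), and its interaction of −0.21 was not called. The transcription factor genes *FKH1*, *FKH2*, *NDD1* and *MCM1*, which drive mitotic genes such as *SWI5*, fell by 0.83, 0.47, 0.40 and 0.38, and the interaction of *FKH1* was −1.04. *CDC14*, of the phosphatase that lets Swi5 into the nucleus, fell by 0.41, whereas the kinase gene *CBK1* rose by 0.43. Its partner gene *MOB2* (−0.08) and *NET1*, of the anchor of Cdc14 (−0.04), were not called. Of 8 genes for the transport of *ASH1* mRNA to the bud or its silencing on the way, 6 fell, against the same 29.3% of all genes, with a median of −0.53. The translational repressor genes *PUF6* and *HEK2* (also called *KHD1*) fell by 0.98 and 0.67, *LOC1* by 0.81, *SHE2*, of the RNA-binding adaptor, by 0.49, and *MYO4*, of the myosin motor, by 0.25.

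Genes of the chromatin, Mediator and corepressor complexes listed changed in both directions in met30-6, where 29.3% of all genes fell and 38.8% rose. Of 12 SWI/SNF genes, 5 fell and 1 rose, and the rise was lost with quantile normalisation and without any one of the 4 met30-6 arrays. Between the strains at 35 °C, 9 of 12 were lower (32.7% of all genes), with a median of −0.27. *SWI1* was lower by 0.58 ± 0.08 there, and its difference between temperatures in met30-6 was −0.61. *SNF5* was lower by 0.40 at 35 °C. Of 14 SAGA genes, 6 fell and 2 rose in met30-6, with a median of −0.07 beside 0.07 over all genes. The acetyltransferase gene *GCN5* fell by 0.31 and *SGF11* by 0.75, whereas *SPT20* rose by 0.45. Only 1 SAGA gene rose without either met30-6 25 °C array or without met30-6 35 °C replicate 2. Of 8 genes of the Mediator tail and kinase modules 2 rose, *SSN2* by 0.21 and *GAL11* by 0.31, and none or 1 without met30-6 25 °C replicate 1 or without either met30-6 35 °C array. Of the 4 genes of the FACT complex and Nhp6, *SPT16* rose by 0.32, a call lost with quantile normalisation, and the others were not called. Of 13 genes of the Rpd3 deacetylase and other corepressors, 5 fell and 4 rose, from −0.45 (*CYC8*) to 0.43 (*SIN3*), and 1 or 2 rose without any one of the met30-6 arrays.

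Most of the other SBF targets listed, and most MBF targets, were lower at 35 °C than at 25 °C in met30-6. Of 18 SBF target genes, 14 fell in met30-6, where 29.3% of all genes fell and 38.8% rose, with a median of −0.73. *YOX1*, counted above among the genes that act on SBF and MBF, is also one of those that fell here. The cyclin genes *PCL1* and *CLN1* fell by 1.48 and 1.43, and *SVS1* by 1.46. The 2 that rose, *KRE6* by 0.34 and *EXG1* by 0.28, both of cell wall glucan, were named after their values were seen, and 1 or 0 rose without any one of the met30-6 arrays or with quantile normalisation. Of 19 MBF target genes measured, 17 fell, with a median of −0.90, and the other 2 were not called. The S-phase cyclin gene *CLB6* fell by 1.92 and *RNR1*, of ribonucleotide reductase, by 1.63. Between the strains at 35 °C 16 SBF and 18 MBF targets were lower, against 32.7% of all genes. In PY1 the shift went the other way, with 9 SBF and 17 MBF targets higher (26.2% of all genes), and 11 MBF targets higher without PY1 35 °C replicate 2. *HO* itself, an SBF target, was at −0.16 in PY1. In the interaction *PCL1* stood at −2.04, *CLB6* at −2.28 and *RNR1* at −2.31. No measure of cell-cycle position was analysed here, and in these bulk samples fewer cells at the stage that expresses *HO* and less *HO* RNA per cell cannot be told apart.

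Targets of Swi5 and its paralog were called in shares near those of all genes. Of 19, 8 rose and 5 fell in met30-6 (38.8% and 29.3% of all genes), with a median of 0.13 beside 0.07 over all genes. The cell wall gene *PIR3* rose by 1.40 and *RME1*, of a repressor of meiosis, by 0.21, whereas *PCL2*, also on the SBF list, fell by 0.45, *BUD9* by 0.57 and *PRY3* by 0.52. The number that rose was 4 with quantile normalisation, without met30-6 25 °C replicate 2 and without met30-6 35 °C replicate 1. *RME1* had an interaction of 0.53 (limma, adjusted p = 0.00588). Counting each gene of the SBF, MBF and Swi5 target lists once, there were 55, and the lowest temperature difference among them in met30-6, that of *CLB6*, was 3.83 above that of *HO* on the log2 scale.

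**Figure D4:**
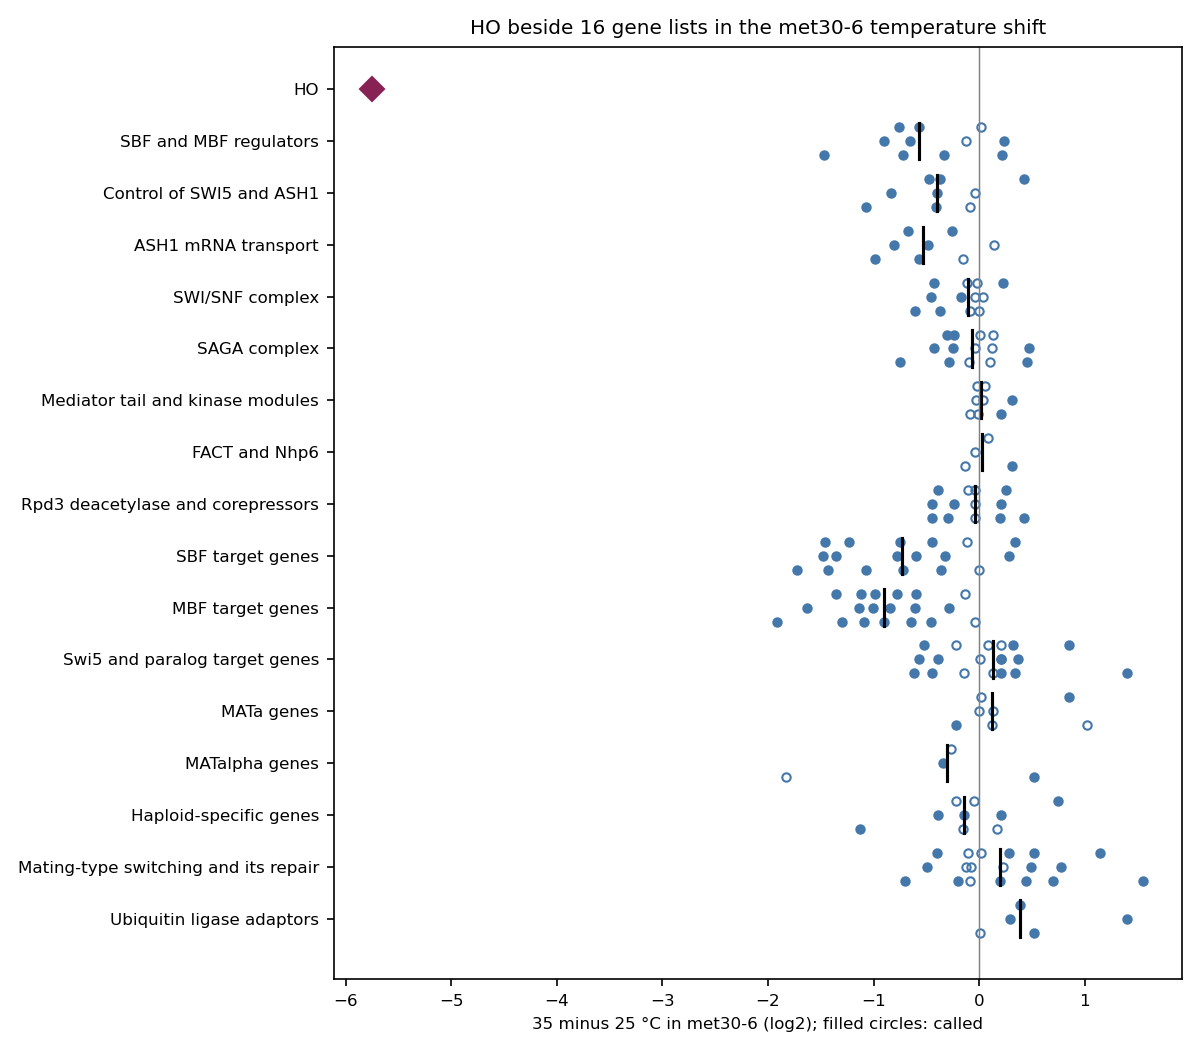
Difference between 35 and 25 °C in met30-6 (log2) for *HO* (diamond) and for each measured gene of 16 lists, 1 list a row; filled circles passed the adjusted threshold, open ones did not, and bars mark medians. The lowest list gene, *CLB6*, lies at −1.92, the SBF and MBF targets have medians of −0.73 and −0.90, and *HO* is at −5.75.

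Of the 9 other genes listed that are shut off in diploids, 3 fell and 2 rose in met30-6, where 29.3% of all genes fell and 38.8% rose, with a median of −0.15. The share that fell was near that of all genes. *FAR1*, of the pheromone arrest factor, fell by 1.13 in met30-6 and by 1.36 in PY1, where *GPA1* fell by 0.48. *STE18*, of a G-protein subunit, rose by 0.74 in met30-6. Only 1 rose with quantile normalisation, without either array of PY1 at 35 °C, without either array of met30-6 at 25 °C or without met30-6 35 °C replicate 1, since *RME1* is also on this list and its rise was lost there. Of 19 genes measured for the repair and silencing steps of switching, 9 rose and 4 fell in met30-6, against 38.8% and 29.3% of all genes. Fewer than 4 fell with values under 6 set to 6 and without any one of the met30-6 arrays. *RAD59*, of strand annealing, rose by 1.56 in met30-6, where it was already 2.08 above PY1 at 25 °C. *RAD10* rose by 1.14 and *XRS2* by 0.78. *UFO1*, the F-box gene for turnover of the Ho protein, was listed with genes of ubiquitin ligases and of proteins that act with them. It had a difference of 0.01 in met30-6 and −0.39 in PY1, the latter called, with an interaction of 0.40. *MET30* rose by 1.40 in met30-6, where it was already 0.645 above PY1 at 25 °C, with an interaction of 1.45. *DDI1*, which acts with Ufo1, rose by 0.52, *GRR1* by 0.29 and *CDC4* by 0.38.

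By Pearson's r over the 8 arrays, the genes with the pattern most like that of *HO* were *YMC2* (0.9988), *RRP1* (0.9987), *RRP12* (0.9987), *RRB1* (0.9985), *ECM1* (0.998) and *KEL3* (0.9979). Each was lower in met30-6 at 35 °C than in the other 3 groups, and the sizes were smaller, from −0.97 (*RRP1*) to −1.89 (*YMC2*) between temperatures in met30-6. Such an r reflects the 2 low arrays, and 840 of the other 5448 genes had an r over 0.9 with *HO*. Among the regulators the r with *HO* was 0.921 for *SWI6*, 0.914 for *SWI5*, 0.654 for *ASH1*, 0.373 for *MBP1* and −0.149 for *SWI4*. *OAC1*, *WSC4* and *CHS2* were most like *SWI5* (0.9952, 0.9928 and 0.9927). *DAD3*, *CHS1* and *THI80* were most like *SWI6* (0.9799, 0.9751 and 0.9688), *PIH1*, *HIM1* and *YJR154W* most like *SWI4* (0.9615, 0.9408 and 0.9239), *CSN9*, *CDC8* and *SIR3* most like *MBP1* (0.9558, 0.9486 and 0.943), and *MUM2*, *RTC5* and *AIF1* most like *ASH1* (0.9569, 0.9547 and 0.9528). All these values describe the same 8 arrays and carry no test.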

How the data were processed

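Biotin-labelled cRNA from total RNA, prepared in 1 amplification cycle per the labels, was hybridised to 8 Affymetrix arrays, 2 for each of 4 groups taken from the sample titles. The authors deposited 1 table of 5716 probe sets, read here as log2 values because they ran from 0 to 14.51; the sources used here do not say how they were background-corrected, summarised or scaled. Probe sets were named through the platform's annotation, with 12 symbols updated through a gene table of the R64 assembly; 5498 had 1 symbol and 218 had none. Where a gene had several (47 genes), the one with the highest mean was kept. No further normalisation or filter was applied. limma 3.58.1 in R 4.3.3 fitted 4 group means (4 residual and 2.7 prior degrees of freedom), after tests on simulated data. The number of arrays limits the precision.

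The genes and lists were chosen with earlier results of these data known. Genes named are the 6 members, those with the highest r with *HO* (6) or a regulator (3 each), the 3 genes on each side of *HO*, all genes of the lists on SBF and MBF regulators, on *SWI5* and *ASH1* control and on ubiquitin ligases, and, for each list, up to 4 with the lowest adjusted p in the interaction and up to 2 in each other comparison. List genes with no value were not analysed here. Replicate numbers were not taken as pairs. Alternatives were 2 other scalings, 2 treatments of dim values, other variance models and array subsets, a replicate block, other uses of probe sets, and leaving out each array.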

Additional observations from a re-analysis of the deposited data

Results flagged for a closer look

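The temperature response differed between the strains, by limma's interaction contrast, for *SWI5* (−0.33, adjusted p = 0.0467), which among the regulators was the only one past the threshold. It also differed for *NRM1* (−1.70), *YOX1* (−1.40) and *CLN3* (0.66) of SBF and MBF control, for *FKH1* (−1.04), for the target genes *CLB6* (−2.28), *RNR1* (−2.31), *PCL1* (−2.04) and *RME1* (0.53), and for the ligase genes *MET30* (1.45) and *UFO1* (0.40), with adjusted p from 3.11e-05 to 0.00647. *CLN3*, *RME1* and *UFO1* were called lower at 35 °C in PY1 (−0.44, −0.32 and −0.39), whereas in met30-6 the first 2 were called higher (0.22 and 0.21) and *UFO1* was not called (0.01). In met30-6 the rise of *CLN3* was not called without met30-6 25 °C replicate 1 (0.19) or met30-6 35 °C replicate 1 (0.18). That of *RME1* was not called with quantile normalisation (0.11), without either met30-6 25 °C array, without either PY1 35 °C array or without met30-6 35 °C replicate 1, with values of 0.13 to 0.21. The fall of *RME1* in PY1 was not called without PY1 25 °C replicate 1 or PY1 35 °C replicate 1 (−0.27). These results rest on 2 arrays in each group.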

How the results depend on the processing

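The temperature difference of *HO* in met30-6, its difference between strains at 35 °C and its interaction were −6.27, −6.17 and −6.05 with quantile normalisation and −5.53, −5.49 and −5.37 with values under 6 set to 6. Without one array they ran from −5.85 to −5.65, from −5.81 to −5.61 and from −5.69 to −5.49. *HO* had the lowest temperature difference in met30-6 and the lowest interaction of all genes under each alternative. The number of regulators called between strains at 35 °C, 3, was 2 with array medians subtracted and with quantile normalisation. It was 4 with only the groups compared in the fit, and it changed in some fits without one array. The number called between temperatures in met30-6, 2, was 3 with quantile normalisation and with a trended robust variance. The number of regulators called between temperatures in PY1, 4, was 2 with array medians subtracted, with quantile normalisation, with values under 6 set to 6 and with only the groups compared in the fit, and 1 with the replicate block. It was 1 to 2 without one array. In met30-6 the number, 2, ran from 1 to 3 without one array. Between strains at 25 °C the number, 0, was 1 (*SWI5*) with array medians subtracted, with quantile normalisation, without genes of a mean under 6 and with a trended robust variance, and 0 to 1 without one array. In the interaction the number, 1, was 0 with quantile normalisation, 2 with the trended robust variance and 0 to 1 without one array. Of all list genes, 76 were called between temperatures in PY1, and 41 to 70 without one array. At 25 °C between strains 19 were called, 34 with quantile normalisation, 32 with the trended robust variance, 11 with the replicate block, 10 with only the groups compared, and 6 to 15 without one array. Among all 5449 genes, 36.7% were called between temperatures in PY1 and 12.9% between strains at 25 °C. The counts of list genes show how calls moved with the setting and were not compared with these shares. Quantile normalisation turned the met30-6 temperature differences of *POB3* (to −0.14, called) and *STE3* (to −0.11, not called). For differences not called under either setting, signs were not compared. The higher share of called genes between temperatures in PY1, 71.5%, was 58.3% with medians subtracted and 49.8% with quantile normalisation. The deviations of same-numbered arrays from their group means correlated from −0.182 to 0.109 over the 6 pairs of groups, so the arrays share only a number. With the replicate block the interaction of *SWI5* (−0.33) was no longer called and that of *SWI6* (−0.30) was (adjusted p = 0.0724 and 0.0477). The rise of *RME1* in met30-6 was not called with the block (0.21, adjusted p = 0.0602), and 1 haploid-specific gene rose. Of the 4 switching genes that fell there, 2 did with the block. The causes of these changes were not tested. No detection calls were used, so how far below 5.8 *HO* may have been is not known.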
